A study of Rattus norvegicus with 6 samples.

Results

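Exon skipping events were examined in RNA-seq of vascular smooth muscle cells (VSMCs), which contract to narrow the vessel, from 2 control libraries and 4 libraries labelled SLC2A10 knockdown. The events were every deposited event whose type names the skipping of 1 exon or of several consecutive exons, in its ON form (the exon is kept in the transcript) or its OFF form (the exon is left out), and repeated event identifiers within a library were dropped. They numbered 13222 of 57428 events of all types and lay in 3867 of 13713 loci. The samples were from rat of the strain SD with the tissue label aorta. The controls carry the genotype label wild type, and the other 4 libraries carry SLC2A10-/- and fall into 2 libraries of interference sequence 2 and 2 of interference sequence 3, as their titles were read. The study's methods describe cells cultured from rat aorta at passage 3 and infected with virus for short hairpin RNA or with control virus, so all 6 libraries were of infected cells, whereas the titles name siRNA, the extraction text names frozen aorta and the series text names mice. Knockdown is the study's term. The labels do not say whether replicates were separate cultures, so p-values here reflect spread among libraries that may only be technical.

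An internal exon can be kept or skipped when the introns of a transcript are removed, and one gene can in this way give several proteins. Smooth muscle is known for such exons in genes of the contractile apparatus and of the matrix, and the choice is set by splicing factors that bind near the exon. An exon whose length is a multiple of 3 can be skipped without a shift of the reading frame. SLC2A10 encodes GLUT10, a sugar transporter. The loci carry Ensembl gene IDs, which the files and the gene table used here do not pair with names, so neither SLC2A10 nor the markers of smooth muscle were analysed here and every direction rests on the sample labels. Loci are given by chromosome position as the deposited values list it, and the sources used here name no genome build for it.

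The values are FPKM, fragments scaled to the length of the transcript and to the fragments mapped in the library, and an event not listed in a library was taken as 0. An unlisted event can also be a transcript that failed to be assembled, so this 0 is not a measured absence. Read counts were not used here, so the depth behind a value is unknown. An event's value belongs to the transcripts that carry it and not to reads across its junctions: 68.7% of 51061 exon skipping values equalled that of another event of the same locus and library, and 34.9% equalled that of a transcript start or end. Values summed over the events of a locus can therefore count a transcript more than once and exceed the sum of its transcripts. In these bulk samples fewer cells of a type and less RNA per cell cannot be told apart. Replicate 2 of sequence 3 stood apart, with 387 events unlisted that all other libraries listed, against 80 to 156 such events in the other 5 libraries.

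Of the 13222 events, 6883 were ON forms and 6339 were OFF forms. Events of a single exon made up most of them, with 4753 ON and 4498 OFF forms, and several consecutive exons were skipped together in 958 ON and 807 OFF forms. The other 2206 carry a leading X in their type, read here as approximate forms in which the ends of the exons may differ, and 1211 events repeated the coordinates of another event of the same form. A locus held a median of 2 events, 664 loci held 1 event and 195 held at least 10. The locus with the most events, on chromosome 1 from 225184867 to 225255593, held 147.

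Each library listed between 7931 and 8881 events in 3339 to 3526 loci, which was 20.83% to 21.81% of its events of all types. The controls listed 8881 and 8605 events, sequence 2 listed 8346 and 8794, and sequence 3 listed 8504 and 7931. The ranges of the groups overlapped. The mean was 8393.8 ± 360.0 (SD, n = 4) with knockdown and 8743.0 ± 195.2 (SD, n = 2) in controls, a difference that was not larger than the spread between libraries (two-sided exact permutation test, p = 0.2667; the smallest p that 2 against 4 libraries allow is 0.133). Transcript starts, intron retention and alternative exon ends were also fewer on average with knockdown (exact permutation tests, p = 0.4, 0.2667 and 0.2667), and exon skipping events per 100 transcript starts were 62.818 ± 0.7775 (SD, n = 4) against 63.97 ± 0.693 (SD, n = 2) (exact permutation test, p = 0.2667).

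**Figure D1:**
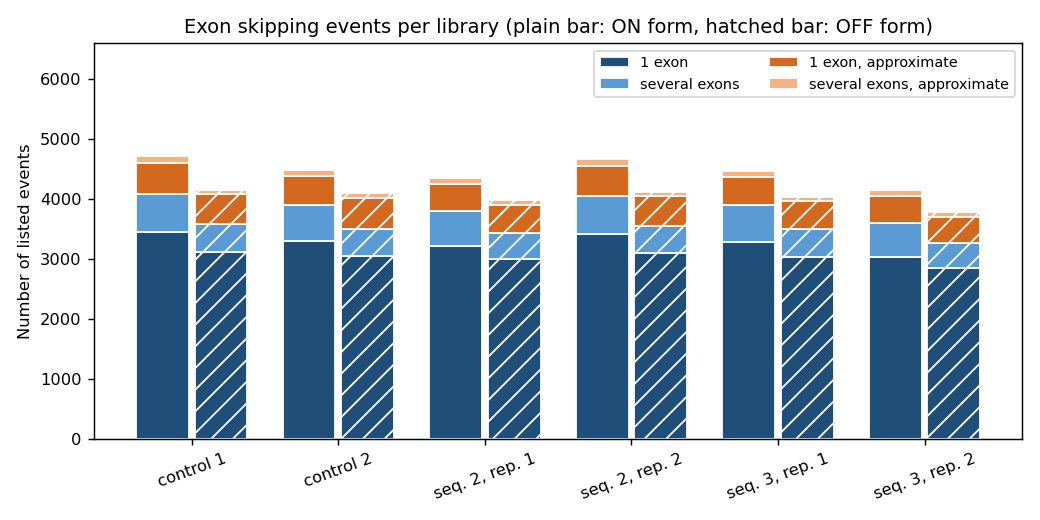
Number of exon skipping events listed in each library, as stacked bars of the event classes, with the ON forms in the plain bar and the OFF forms in the hatched bar. Every library listed more ON than OFF forms, and replicate 2 of sequence 3 listed the fewest of both, 4150 ON and 3781 OFF.

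The summed FPKM of ON forms was 38370 and 38170 in the controls, 37530 and 39370 with sequence 2 and 37920 and 36850 with sequence 3. For OFF forms it was 42310 and 42540 in the controls, 41790 and 41240 with sequence 2 and 42540 and 41500 with sequence 3. The ON forms held 47.427% ± 0.1834 (SD, n = 2) of the sum in controls and 47.579% ± 0.8467 (SD, n = 4) with knockdown, a difference of 0.1518 percentage points that lay within the spread between libraries (exact permutation test, p = 0.9333). This difference turned to -0.8276 percentage points when approximate forms were left out and to -0.2676 without replicate 2 of sequence 2, with exact permutation p-values of 0.2667 and 0.4. With 2 against 4 libraries these tests could not reach 0.05, so they do not show that the balance was the same.

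Exon skipping events were less often shared by the libraries than transcript starts or ends. All 6 libraries listed 5655 events (42.8%), against 54.0% of transcript starts, 65.4% of transcript ends, 43.5% of alternative exon ends and 31.1% of intron retention events. A single library listed 3492 events (26.4%). Single-exon events were listed in all 6 libraries in 47.5% of cases and events of several exons in 35.9%. Both controls and no knockdown library listed 201 events (1.52%), beside 1.19% of all other events, and all 4 knockdown libraries and no control listed 53 events (0.401%), beside 0.403%. The number of exon skipping events was lower in every knockdown library than in both controls at 123 loci (3.18%) and higher at 24 (0.621%), beside 2.26% and 0.854% for the other events of a locus.

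The exons of these events were short. Lengths were taken from the ON forms, and it was not required that the same exon was also listed as skipped. Over 4516 distinct single exons of the exact class the median length was 104 nt, with an interquartile range of 70 to 155 nt. Of these, 142 exons (3.14%) were of at most 30 nt, the size of microexons. A length that is a multiple of 3 was found for 2358 of them (52.2%), against 33.3% if every remainder were as frequent and 35.9% of 4722 exons with an alternative end. The share was 55.0% among exons listed in all 6 libraries, 44.2% among those listed in 1, and 57.2% among the 636 exons with a mean FPKM of at least 10. Runs of several exons held 2 exons in 706 of 958 cases (73.7%), and the longest held 15. Of 6743 pairs of flanking exons, 29.5% included the first exon of a transcript, 16.1% the last exon and 57.4% neither, so many events lay beside a start or an end.

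**Figure D2:**
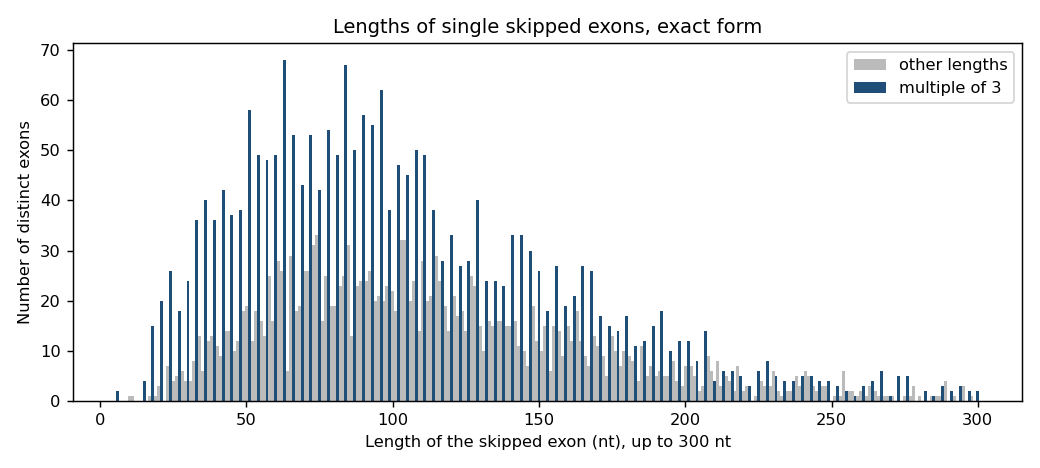
Lengths of single exons of the ON forms up to 300 nt (horizontal axis, nt) against the number of distinct exons of each length (vertical axis), with lengths that are multiples of 3 in dark blue. The dark bars stand above their neighbours over most of the range, as the 52.2% of lengths that are multiples of 3 reflect, and the median lies at 104 nt.

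The levels of the 2 forms at each locus were compared first, on log2(FPKM + 1), which understates the change of low values. ON forms were tested at 2564 loci that reached an FPKM of 1 in at least 2 libraries, and 68 loci (2.65% of those tested) passed an adjusted p under 0.05 from limma. They comprised 56 loci lower (2.18%) and 12 higher (0.468%) with knockdown. OFF forms passed at 53 of 2318 loci (2.29%), 40 lower (1.73%) and 13 higher (0.561%). This filter also admits a form listed in the controls alone or with knockdown alone, as at some of the loci named below. The size and p of such a change rest on unlisted values taken as 0, which have no spread, and on the pseudocount of 1. The median log2 change was -2.65 among the lower and 1.28 among the higher ON loci, and -2.98 and 1.65 among the OFF loci, beside a median of 0.04 over all tested loci for each form. Without control replicate 1 the ON calls were 15 and the OFF calls 16, without control replicate 2 they were 20 and 3, the loss of replicate 1 of sequence 2 left 44 and 26, that of its replicate 2 left 36 and 29, and that of replicate 2 of sequence 3 left 39 ON calls. At an unadjusted p under 0.05 more loci were higher than lower, 212 against 173 for ON and 178 against 140 for OFF.

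Most of these loci changed in level in the same direction. As the level of a locus served its summed transcript starts or its summed transcript ends, whichever was larger. Level and forms come from the same transcripts, so part of this agreement was fixed in advance. Of the 56 loci with lower ON forms, 50 were also lower in level, and of the 40 with lower OFF forms, 36 were. Among the higher loci these were 9 of 12 and 9 of 13. The other form was never listed at 10 of the 56 loci with lower ON forms and 6 of the 40 with lower OFF forms. It was called lower as well at 20 of the 56 and 20 of the 40. Both forms could be tested at 1546 loci, and at 20 of them both passed, all 20 with both forms lower. No locus had one form called higher and the other called lower. The levels of loci with an exon skipping event were lower at 101 of 3506 (2.88%) and higher at 56 (1.60%), beside 2.86% and 2.58% of 7142 loci without one.

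**Figure D3:**
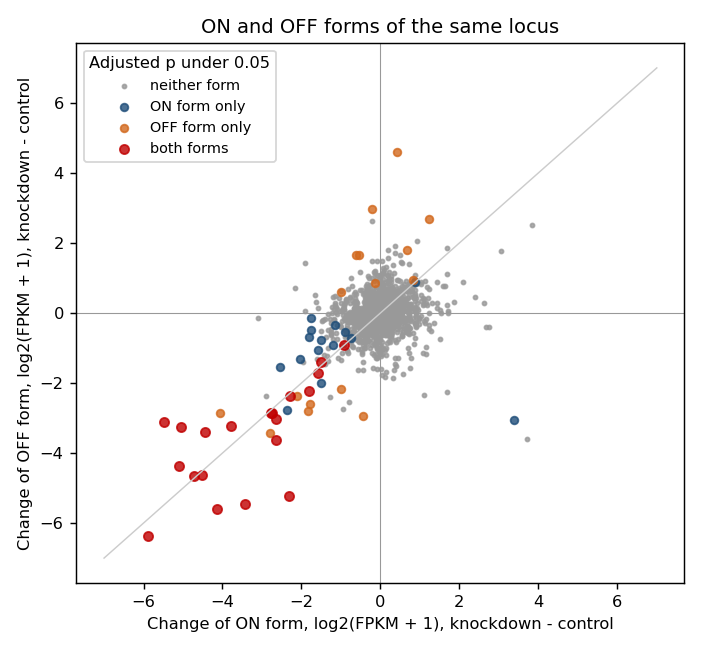
Change of the ON form (horizontal axis) and of the OFF form (vertical axis) of 1546 loci with both forms tested, each as the difference of knockdown and control means on log2(FPKM + 1). The 20 loci in which both forms passed an adjusted p under 0.05 from limma lie in the lower left, where both forms were lower.

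Among the ON forms that fell, the locus on chromosome 10 from 88599680 to 88611105 had FPKM values of 85.2 and 94.65 in the controls, was unlisted in both libraries of sequence 2 and had 0.9212 and 1.762 with sequence 3, a log2 change of -5.90 (SE 0.200, adjusted p = 0.000297 from limma). Its level fell too (adjusted p = 8.56e-05 from limma). A locus on chromosome 12 from 41200692 to 41211909 was lower in both forms. Its ON form had 91.44 and 37.34 in controls and was unlisted in all 4 knockdown libraries (adjusted p = 0.00197 from limma). Its OFF form went from 91.44 and 147.4 to unlisted with sequence 2 and 1.139 and 0.891 with sequence 3 (log2 change -6.37, SE 0.242, adjusted p = 0.000613 from limma). The ON share of its summed forms was 50.0% and 20.21% in the control replicates. In control replicate 1 each form equalled the level of 91.44, so the forms did not divide the level between them. A second locus of the same stretch, from 41256031 to 41266444, had OFF values of 99.87 and 104.6 in controls and no more than 2.527 with knockdown (log2 change -5.59, SE 0.302, adjusted p = 0.00182 from limma). Whether these neighbours share reads was not tested.

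The OFF form of a locus on chromosome 16 from 19938784 to 19942343 had 255.2 and 289.7 in controls and was unlisted in every knockdown library (adjusted p = 8.16e-05 from limma), as was the whole locus. On chromosome 16 from 29830680 to 29936307 the ON form had 46.98 and 40.86 and the OFF form 4.788 and 12.02 in controls, and neither was listed with knockdown (adjusted p = 0.000297 from limma for the ON form). The ON form on chromosome 20 from 3226313 to 3281783 had 32.3 and 31.48 in controls and was unlisted with knockdown (adjusted p = 0.000297 from limma), while its OFF form kept 0.724 to 2.998 of 21.61 and 27.05 FPKM. The OFF forms on chromosome 10 from 34277993 to 34281586 (81.77 and 73.78 in controls, 0.5981 to 1.156 with knockdown) and on chromosome 4 from 28304786 to 28324638 (83.68 and 61.1 in controls, at most 1.724 with knockdown) fell as well, with log2 changes of -5.46 each (adjusted p = 0.000425 and 0.00637 from limma).

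Higher forms changed less. The ON form of a locus on chromosome 5 from 167883073 to 168035810 rose from 3.826 and 5.753 in controls to between 17.26 and 22.26 (log2 change 1.86, SE 0.183, adjusted p = 0.00998 from limma), with its level. A pair of loci on chromosome 6, from 127927650 to 127934162 and from 129052503 to 129059050, gave nearly the same values, 2.339 and 2.194 against 5.769 to 9.176 and 2.319 and 2.019 against 5.872 to 8.882 (adjusted p = 0.0163 and 0.0212 from limma), and whether they share reads was not tested. On chromosome 20 from 27282260 to 27308072 the ON form was unlisted in controls and had 5.627, 6.124, 5.166 and 4.662 with knockdown (adjusted p = 0.00206 from limma), while the level of the locus, 5.815 and 3.845 in controls and 4.662 to 6.124 with knockdown, did not pass (adjusted p = 0.612 from limma). The ON form on chromosome 1 from 157573324 to 157649692 rose from 2.86 and 3.71 to between 8.311 and 10.19 (log2 change 1.25, SE 0.164, adjusted p = 0.0289 from limma).

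Among higher OFF forms, the locus on chromosome 5 from 157282669 to 157285328 rose from 0.8606 and 1.013 to 10.01, 10.36, 11.81 and 14.45 (log2 change 2.70, SE 0.165, adjusted p = 0.00256 from limma) together with its level, and so did the locus on chromosome 13 from 111946630 to 111986471, from 17.35 and 20.49 to between 57.43 and 83.73 (log2 change 1.77, SE 0.132, adjusted p = 0.00439 from limma). On chromosome 2 from 188784222 to 188793895 the OFF form was unlisted in controls and had 1.833 to 3.483 with knockdown (adjusted p = 0.0302 from limma), beside a level that rose as well (adjusted p = 0.0245 from limma). In 4 of the 13 loci with higher OFF forms the level did not pass as higher, among them 2 of the 5 with the largest change. The OFF form on chromosome 1 from 217602698 to 217638152 had 0.3426 and 1.14 in controls and 14.33, 6.179, 14.04 and 17.16 with knockdown (log2 change 2.96, SE 0.384, adjusted p = 0.0302 from limma), and that on chromosome 1 from 185094631 to 185143272 was unlisted in controls and had 27.48, 28.23, 28.0 and 12.75 with knockdown (adjusted p = 0.00377 from limma).

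The share of the ON form was compared next, as log2((ON + 1)/(OFF + 1)) of the FPKM summed per locus, in 2777 loci with at least 1 FPKM of both forms together in every library. With knockdown the ratio was lower at 4 loci and higher at 2 (0.216% of those tested, adjusted p under 0.05 from limma). For sequence 2 against control 4 were lower and 1 higher (0.18%), and for sequence 3 against control 4 were lower and 3 higher (0.252%). These comparisons share the control libraries. Sequence 3 against sequence 2 gave 2 higher loci (0.072%). Of the 6 loci, 5 listed a single form in all libraries, as did 387 of the tested loci (13.9%). For such a locus the ratio follows the level alone. The locus on chromosome 7 from 118927008 to 118933812 (ENSRNOG00000023410), for example, had ON values of 102.1 and 119.8 in controls and 2.382, 1.929, 4.197 and 4.988 with knockdown, and no OFF form in any library. Where each form reached 1 FPKM or more in 2 or more libraries, a restriction chosen after seeing these values, limma called 0 of 1414 loci (0.0%), with 94 at an unadjusted p under 0.05 and a smallest adjusted p of 0.0767. No locus was called without control replicate 1, without control replicate 2 or without either library of sequence 2.

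The other loci with a single form were on chromosome 10 from 34213936 to 34221928 (ON values of 71.8 and 64.51 in controls, 1.881 to 3.953 with knockdown), on chromosome 20 from 4541481 to 4561062 (ON values of 452.2 and 452.0, then 21.86 to 38.08), on chromosome 9 from 54287541 to 54327958 (ON values of 220.8 and 234.4, then 17.83 to 22.63) and on chromosome 10 from 70411738 to 70435156 (OFF values of 64.38 and 63.35, then 1.583 to 7.249). All 5 were also lower in level (adjusted p of 2.69e-05 to 6.18e-05 from limma). The locus with both forms, on chromosome X from 1275411 to 1304822, listed its OFF form alone in controls (3.272 and 3.326) and with sequence 2 (2.634 and 2.804) and its ON form alone with sequence 3 (3.335 and 3.624), so libraries of sequence 2 stayed at an ON share of 0% like the controls.

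Further loci separated the groups without passing, and a selection, made after their values were seen, is given as values. The share of all tested loci that separated the groups is not given here, so these values have no background. Of the 15 arrangements of 2 against 4 libraries, 1 puts all knockdown libraries on a given side of both controls. In some of them a form of the controls was unlisted or nearly so with knockdown. On chromosome 1 from 30856174 to 30874176 the ON form had 1.672 and 2.604 in controls and was unlisted with knockdown, where the OFF form had 10.52 to 13.37 (adjusted p = 0.0954 from limma). On chromosome 13 from 90115621 to 90140371 the ON form likewise had 2.362 and 2.394 in controls and was unlisted with knockdown, beside OFF values of 15.57 to 20.29 over all libraries (adjusted p = 0.103 from limma). On chromosome 10 from 89455638 to 89484080 the OFF form had 7.606 and 8.154 in controls and 0.09284 to 0.1812 with knockdown, beside ON values of 48.35 to 99.7 (adjusted p = 0.195 from limma). On chromosome 14 from 80403001 to 80426245 the OFF form had 2.569 and 1.273 in controls and was unlisted with knockdown, where the ON form had 19.11 to 26.03 (adjusted p = 0.216 from limma). In these 4 loci that was the minor form of the controls. On chromosome X from 38294801 to 38353461 it was the major one, with ON values of 1.262 and 0.9943 in controls and OFF values of 1.133 to 1.678 with knockdown (adjusted p = 0.0954 from limma). Others gained a form with knockdown, as on chromosome 5 from 76150840 to 76171423, where the ON form was unlisted in controls and had 1.28 to 2.834 with knockdown beside OFF values of 5.659 to 8.425 over all libraries (adjusted p = 0.216 from limma).

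A locus can hold many exons, so the ON and OFF forms of the same exon were also compared directly, in a test added after seeing the data. Event pairs were the 2 forms with the same locus, strand, flanking exon ends and class, and 1387 pairs from 1065 loci had each form at 1 FPKM or more in 2 or more libraries. The median ON share over these pairs was 48.4% in controls and 50.0% with knockdown. The ON share of a pair differed between the 2 control libraries by a median of 8.48 percentage points, between the libraries of sequence 2 by 8.17 and between those of sequence 3 by 9.37. Means over several libraries vary less than single libraries: the means of control and knockdown differed by a median of 6.17, beside 6.06 between the means of sequence 2 and sequence 3. Every knockdown library lay below both controls in 110 pairs (7.93%) and above both in 113 (8.15%), by at least 20 percentage points in 32 and 35 of them. Of the 15 arrangements of 2 against 4 libraries, 1 gives each of these orders, so such pairs arise often without any effect of the labels. An adjusted p under 0.05 from limma was reached by 4 pairs (0.288%), 2 lower and 2 higher, and 99 pairs passed an unadjusted p under 0.05. In each of these 4 pairs a form was unlisted in every library of a group. That form met the filter only through the other group. The size and p of these changes therefore rest on unlisted values taken as 0 and on the pseudocount of 1. Without control replicate 1 or control replicate 2 the count of calls was 0, and without replicate 2 of sequence 3 it was 2. With the filter used for loci, which also admits pairs with a single form, 25 of 4252 pairs passed (0.588%), and 18 of these moved by less than 5 percentage points.

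**Figure D4:**
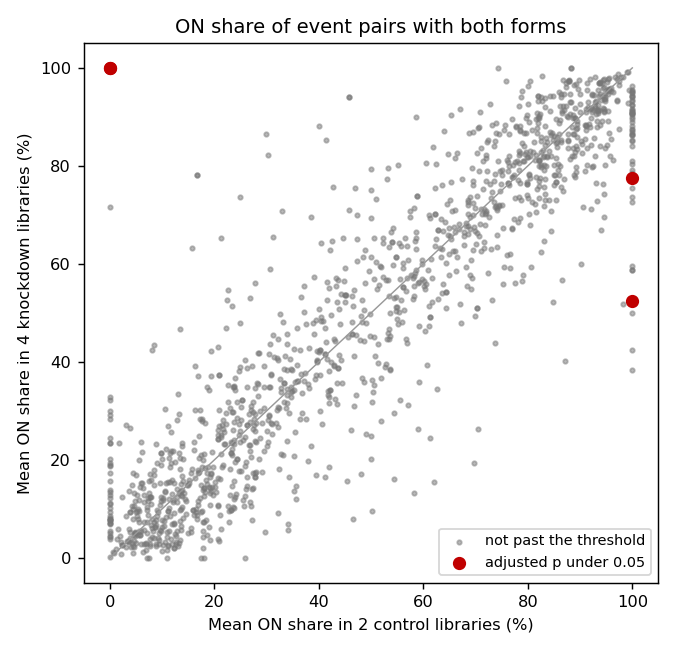
Mean ON share of 1387 event pairs in the 2 control libraries (horizontal axis, %) and in the 4 knockdown libraries (vertical axis, %), with the line of equal shares and the 4 pairs past an adjusted p under 0.05 in red. A pair of red points lies at a share of 100% in controls and lower with knockdown, and the other two coincide at 0% in controls and 100% with knockdown.

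Both lower pairs belonged to 1 locus, ENSRNOG00000058645, on the minus strand of chromosome 5 from 79789671 to 79874671. They concern a run of 5 exons of 273 nt each, a multiple of 3, that lie at 79811667 to 79811939, 79821804 to 79822076, 79824318 to 79824590, 79828660 to 79828932 and 79829444 to 79829716, between flanking exon ends at 79806561 and 79836081. The locus was listed with 3 forms that together make up its level. One form kept all 5 exons, one kept only the exon at 79811667 to 79811939, and one kept none.

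The form with all 5 exons had an FPKM of 339.5 and 300.4 in the controls, 229.7 and 245.6 with sequence 2 and 211.9 and 146.2 with sequence 3. The form with 1 exon had 59.81 and 53.45, then 69.5 and 71.15, then 65.12 and 52.46. The form without the run was unlisted in both controls and had 62.53 and 46.32 with sequence 2, and its values with sequence 3 were 76.34 and 51.35. All 4 knockdown libraries thus listed a transcript that neither control listed, and their values of the form with all 5 exons lay below both controls. Whether the controls lacked this transcript or it failed to be assembled there was not tested. As a share of the 3 forms, the form with all 5 exons took 85.0% ± 0.0923 (SD, n = 2) in controls, 59.2% ± 1.05 (SD, n = 2) with sequence 3 and 65.6% ± 2.94 (SD, n = 2) for the libraries of sequence 2. The form without the run took 15% ± 3.20 (SD, n = 2) for the libraries of sequence 2 and 21.1% ± 0.753 (SD, n = 2) with sequence 3.

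The ON share of the pair formed by the whole run and its absence was 100% in both controls and 78.6%, 84.13%, 73.51% and 74.0% with knockdown (adjusted p = 0.00382 from limma over all 1387 pairs). That of the pair formed by the single exon and its absence was 100% in controls and 52.64%, 60.57%, 46.04% and 50.54% with knockdown (adjusted p = 0.00356 from limma). The 2 pairs share the form without the run and are not independent. Sequence 3 did not differ from sequence 2 past the threshold in the pair of the whole run (adjusted p = 0.929 from limma). The level of the locus was 399.3 and 353.8 in controls and 250.0 to 363.1 with knockdown (log2 change -0.20, adjusted p = 0.535 from limma). Without control replicate 1 the adjusted p from limma was 0.0769 for both pairs and without control replicate 2 it was 0.0865, and without replicate 2 of sequence 3 it was 0.0576 for the whole run.

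**Figure D5:**
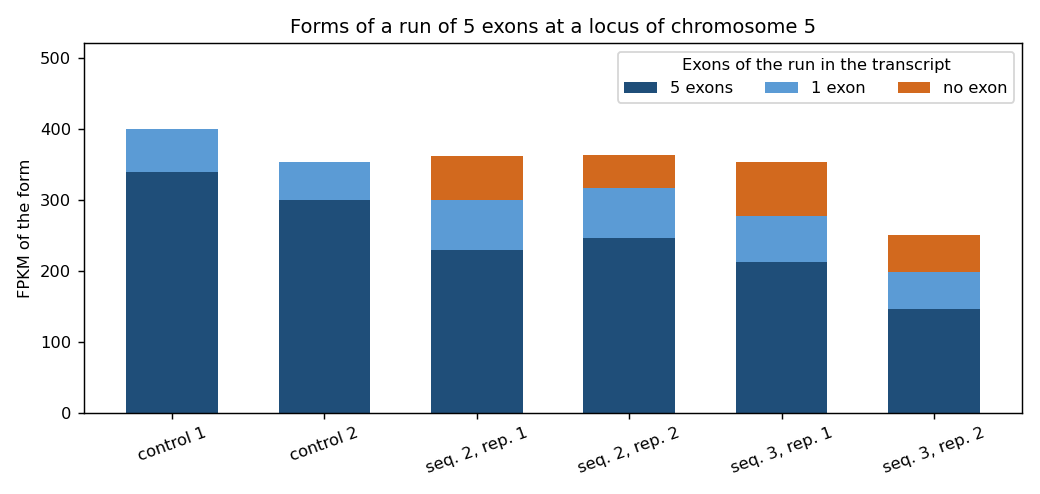
FPKM of the 3 forms of the chromosome 5 locus in each library, stacked, by the number of exons of the run that the transcript keeps. The form with no exon of the run is unlisted in both controls and lies between 46.32 and 76.34 in the 4 knockdown libraries.

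The higher pairs were listed in the OFF form alone in both controls and in the ON form alone in all 4 knockdown libraries, at low levels. In both of them a flanking exon is the first exon of a transcript. One is an exon of 63 nt on chromosome 1 from 215309984 to 215310046, in the locus ENSRNOG00000048049. Its OFF form had an FPKM of 5.412 and 6.067 in controls and was unlisted with knockdown, and its ON form was unlisted in controls and had 5.633, 3.857, 3.492 and 4.681 with knockdown (adjusted p = 0.00356 from limma). Replicate 1 of sequence 3 also listed an approximate OFF form at 1.575, whose left flanking exon end lies at 215306085 in place of 215306082, so its switch was not complete. The level of the locus, 5.412 and 6.173 in controls and 3.857 to 5.735 with knockdown, did not pass (adjusted p = 0.514 from limma). Without either control the pair no longer met the filter on both forms.

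The other is an exon of 71 nt, not a multiple of 3, on chromosome 5 from 127636982 to 127637052, in the locus ENSRNOG00000011413. Its OFF form had 1.636 and 2.433 in controls and was unlisted with knockdown, and its ON form was unlisted in controls and had 9.571, 6.845, 2.509 and 3.661 with knockdown (adjusted p = 0.00818 from limma). The values of the ON form did not overlap those of the OFF form in controls, and they were higher with sequence 2 than with sequence 3 in all libraries. The level of the locus was 26.49 and 24.9 in controls, 27.9 and 29.56 with sequence 2 and 32.54 and 38.68 with sequence 3, above the values of the pair in every library, and did not pass (adjusted p = 0.193 from limma). Without either control this pair, too, no longer met the filter. Without replicate 1 of sequence 2 the adjusted p from limma was 0.0605 and without replicate 2 of sequence 3 it was 0.0576.

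Further pairs separated the groups without passing the threshold and are given as values. An exon of 161 nt on chromosome 1 from 185138026 to 185138186 had ON values of 38.21 and 65.05 in controls and 59.32 to 73.55 with knockdown, and is the exon of the locus whose OFF form was higher above (ON share 100% in both controls and 71.46%, 67.75%, 70.58% and 85.22% with knockdown, adjusted p = 0.0528 from limma). An exon of 65 nt on chromosome 15 from 105670610 to 105670674 had an ON share of 30.8% and 20.83% in controls and was listed only as skipped with knockdown, with OFF values of 33.26 and 36.09 against 33.51 to 45.08 (adjusted p = 0.0714 from limma). The exon of 111 nt on chromosome 1 from 217618966 to 217619076 went from an ON share of 98.8% and 97.64% to 42.53% and 86.01% with sequence 2, and for sequence 3 it was 45.02% and 33.61% (adjusted p = 0.351 from limma). For an exon of 92 nt on chromosome 5 from 116720728 to 116720819 the share was 96.11% and 92.03% in controls and 76.13%, 72.99%, 66.23% and 52.49% with knockdown (adjusted p = 0.248 from limma).

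In the other direction, an exon of 81 nt on chromosome 3 from 13794302 to 13794382 had an ON share of 1.946% and 1.481% in controls and 26.36%, 23.42%, 29.47% and 14.89% with knockdown, with OFF values of 4.446 to 7.198 over all libraries (adjusted p = 0.49 from limma). An exon of 72 nt on chromosome 3 from 11394659 to 11394730 had ON values of 6.702 and 8.393 in controls and 12.11 to 13.8 with knockdown (ON share 81.14% and 84.13% against 93.1% to 100%, adjusted p = 0.49 from limma). An exon of 63 nt on chromosome 12 from 25453979 to 25454041 had a share of 71.74% and 79.74% in controls and 89.51% to 100% with knockdown (adjusted p = 0.49 from limma). An exon of 227 nt on chromosome 5 from 76161072 to 76161298 was listed only as skipped in controls and was kept in 16.23%, 26.58%, 25.72% and 25.17% with knockdown (adjusted p = 0.49 from limma). In these pairs all 4 knockdown libraries lay on one side of both controls, as in 7.93% and 8.15% of all pairs.

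The 5 loci with the highest exon skipping values differed in which forms they listed. These values are sums over events and not levels. The first locus below had 1060 for ON and 2566 for OFF forms in control replicate 1, beside a level of 1369. On chromosome 9 from 78900103 to 78969078, ON and OFF forms together had a mean FPKM of 2959 over 6 events, and the ON share was 29.22% and 31.06% in controls, 32.19% and 33.23% with sequence 2, and for sequence 3 it was 32.77% and 33.24%, above both controls in all 4 knockdown libraries but not past the threshold (adjusted p = 0.851 from limma). On chromosome 16 from 757403 to 762133 it was 26.9% and 23.06% in controls and 22.8% to 24.84% with knockdown (adjusted p = 0.921 from limma). On chromosome 7 from 2906137 to 2909144 it was 70.53% and 71.88% in controls and 67.81% to 73.83% with knockdown (adjusted p = 0.955 from limma). On chromosome 4 the locus from 157143592 to 157155609 listed only OFF forms, at 1328 and 1321 in controls and 1045 to 1203 with knockdown. A second locus there, from 29528465 to 29565261, listed only ON forms except in replicate 1 of sequence 2, where the OFF form had 215.8.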

How the data were processed

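Per the labels, total RNA of 6 rat libraries was sequenced. The authors deposited FPKM values, per event and library, for transcript starts, transcript ends and splicing events. Tools listed in the submitters' processing notes, with no stated role, were StringTie 1.0.4 and HISAT2 2.0.1, HTSeq 0.6.1, Trimmomatic 0.30, bcl2fastq 2.17.1.14 and also SAMtools 0.1.18. The tool that wrote the events is not stated. Groups and replicate numbers were read from the sample titles. Depth is unknown, so no counting interval was given.

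Repeated event identifiers (699 to 897 rows per library) were dropped, and ON and OFF FPKM were summed per locus. Forms and log2((ON + 1)/(OFF + 1)) were fitted with limma 3.58.1 in R 4.3.3, with a mean for each of 3 groups, a mean-variance trend and Benjamini-Hochberg adjustment over all features tested. The code was tested on simulated data. Totals per library were compared with two-sided exact permutation tests (SciPy 1.17.1, Python 3.11.15). Loci named were the 10 of each direction (5 for ON and OFF levels) with the largest change past an adjusted p of 0.05 and no overlap of the groups, filled up by the smallest p, plus the 5 highest loci and those with the most events; the report gives a selection of these where the list was long. The same rule was used for event pairs. Lists of muscle, splicing and interferon genes could not be used, since 0 of 3752 Ensembl IDs were paired with a symbol. The members and lists were chosen with earlier results of these data known. The main fits did not pair samples by replicate number (see the closing section), and alternative pseudocounts, filters, scalings and left-out libraries were run.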

Additional observations from a re-analysis of the deposited data

Results flagged for a closer look

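A pair of loci differed between the interference sequences in the ON share per locus, by limma's contrast of sequence 3 against sequence 2 over 2777 loci (0.072% of those tested). At XLOC_048162, on chromosome X from 1275411 to 1304822, the OFF form had an FPKM of 3.272 and 3.326 in controls and 2.634 and 2.804 with sequence 2 and was unlisted with sequence 3, where the ON form had 3.335 and 3.624; the difference of the log2 ratio was 4.057 (SE 0.198, adjusted p = 0.0304 from limma). The exon behind it was not the same in the replicates of sequence 3. It lay at 1295940 to 1296017 in replicate 1 and at 1275609 to 1275715 in replicate 2. At XLOC_006432, on chromosome 10 from 48879316 to 48881881, the OFF form had 30.96 and 158.3 in controls and 77.24 and 69.45 with sequence 2, and the ON form had 89.73 and 131.0 with sequence 3; the difference was 12.99 (SE 0.811, adjusted p = 0.047 from limma). All its events were approximate forms, and the exon started at 48880832 in replicate 1 and at 48880833 in replicate 2. The right flanking exon end of the OFF form lay at 48881280. That of the ON form lay at 48881334 in both replicates of sequence 3, so the forms did not share both flanks. Replicate 2 listed a further ON event that ended at 48881562, and its 131.0 is the sum of 88.21 and 42.82. Since 1 form is at 0 in each group, both differences depend on the pseudocount of 1. The event pairs showed no difference between the sequences past the threshold (0 of 1387 pairs by limma, 83 at an unadjusted p under 0.05). Neither locus gave a pair that met the filter on both forms, so that count does not bear on either of them.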

How the results depend on the processing

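The calls of the ON share per locus depended on the settings. Against the 6 loci called for knockdown, 5 for sequence 2, 7 for sequence 3 and 2 for sequence 3 against sequence 2, limma called 23, 18, 28 and 12 with a pseudocount of 0.1, which moves loci with an unlisted form most, and 2, 2, 3 and 0 with a minimum FPKM of 5, where 1743 loci were tested. An unadjusted p under 0.05 gave 223, 157, 206 and 138, and an adjusted p under 0.01 gave 3 for sequence 2 and 0 between the sequences. Leaving out 1 library gave 0 to 4, 0 to 4, 0 to 1 and 0 to 1. A restriction to loci with both forms at 1 FPKM or above in 2 or more libraries was chosen after seeing the data, as were the next settings. Under it the first 3 counts were 0, 0 and 2, and with the share in percent 2, 0 and 2. With both forms listed in every library all 4 counts were 0, but that filter drops every locus called with the main settings. Exact forms alone gave 1 between the sequences. Event pairs under the filter used for loci gave 25 calls for knockdown, of which 12 had a single form.

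The ON level counts went from 68 to 36 and the OFF level counts from 53 to 24 at an adjusted p under 0.01, and to 385 and 318 at an unadjusted p under 0.05; leaving out 1 library gave 15 to 56 and 3 to 58. The 4 event pairs called for knockdown, and the 4 for each sequence, became 2, 2 and 2 with the share in percent and 0 where both forms were listed in every library, a filter that drops these 4 pairs, and leaving out 1 library gave 0 to 6, 0 to 3 and 0 to 5. An unadjusted p under 0.05 gave 99, 84 and 111, and 83 between the sequences, and for sequence 3 a minimum FPKM of 5 and single-exon forms alone gave 2 each. Among totals, the difference in summed ON forms turned to 301.4 FPKM with single-exon forms alone (from -355.6), that in OFF forms to 1068 with exact forms alone (from -657.9), and that in the ON share to -0.8276 percentage points with exact forms alone and between -0.2676 and 0.3336 without 1 library; the exact tests could not reach 0.05 in this design.

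Deviations of same-numbered libraries correlated at -0.082 to 0.087, so the values gave no sign of pairing by replicate number. Such correlations cannot exclude that same-numbered samples were handled together, and the labels do not say. With a replicate block the ON share per locus gave 0 calls in all 4 comparisons, ON levels 39, OFF levels 34 and event pairs 4. Of the summary values tested under alternatives, 163 stayed on the same side or within 1.5 times, 89 moved and 4 reversed. FPKM without read counts leaves the precision of low values unknown.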
